A study of Arabidopsis thaliana with 4 samples.

Results

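SWEET9 to SWEET15 are the clade III members of the SWEET family of sugar carriers in Arabidopsis thaliana. Genes were taken as members when their symbol or a synonym in the gene annotation was SWEET9 to SWEET15, and 6 of the 7 had a probe set of their own among the 22746 on the Affymetrix ATH1 arrays. SWEET12 had no named probe set and was not analysed here. SWEET15 is listed under its older symbol, SAG29.

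SWEET proteins let sugars pass through a membrane along the concentration gradient, without proton coupling, and the clade III carriers mainly move sucrose across the plasma membrane. In leaves, SWEET11 and SWEET12 of the phloem parenchyma release sucrose that proton-coupled sucrose carriers then load into the phloem. Other clade III members are best known from nectaries, anthers, seed coats, the vasculature of plants turning to flowering, and senescing leaves.

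The arrays compared aln-1, which carries a mutant allele of ALN (allantoinase) in a Col-0 background, with wild type Col-0. The mutant accumulates allantoin, an intermediate of purine breakdown. Each genotype had 2 independent biological replicates, per the labels, and each array held RNA from the aerial parts of seedlings harvested 2 weeks after germination. All seedlings were grown aseptically in long days on solid medium that contained sucrose, and mutant and wild type had no other treatment.

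Each deposited value is a log2 signal relative to the median of its own probe set over the 4 arrays, so levels cannot be compared between genes. Because of this centring, the 2 middle values of a gene mirror each other around 0 by construction. A coarse brightness could be read from the rounding of the values: it placed SWEET11 in a bright class (signals of at least 256), SWEET10, SWEET13, SWEET14 and SWEET15 in a middle class (16 to 256), and SWEET9 in a dim class (below 16). Replicates of a genotype had a median SD of 0.14 in the bright class, 0.27 in the middle class and 0.94 in the dim class. ALN, the mutated gene, stood at -1.59 and -1.72 in aln-1, against 1.59 and 2.03 in Col-0. Its difference was -3.46 (SE 0.22, limma adjusted p = 0.058). All 4 listed leaf photosynthesis genes fell in the bright class, as did the root marker PYK10, while the root hair markers EXPA7 and EXPA18 were in the middle class on these arrays, which are labelled as aerial parts. Bulk arrays cannot tell fewer cells of a type from less RNA per cell.

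SWEET13 and SWEET14 were higher on both aln-1 arrays than on both Col-0 arrays, by 2.49-fold and 2.84-fold, but neither passed the threshold over all probe sets. SWEET11, the leaf phloem carrier, differed by 1.16-fold, lower in aln-1. SWEET9, SWEET10 and SWEET15 had overlapping arrays. Of the 6 measured genes, 0 passed at a limma adjusted p under 0.05, where 0.255% of all probe sets did. ALN, the mutated gene, did not pass either (difference -3.46, limma adjusted p = 0.058). Failing this threshold therefore does not show that a gene was unchanged. At an unadjusted limma p under 0.05, 2 of the 6, SWEET13 and SWEET14, were higher in aln-1, where 11.1% of all probe sets were called in that direction, and 0 of the 6 were lower, where 12.3% were.

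**Figure D1:**
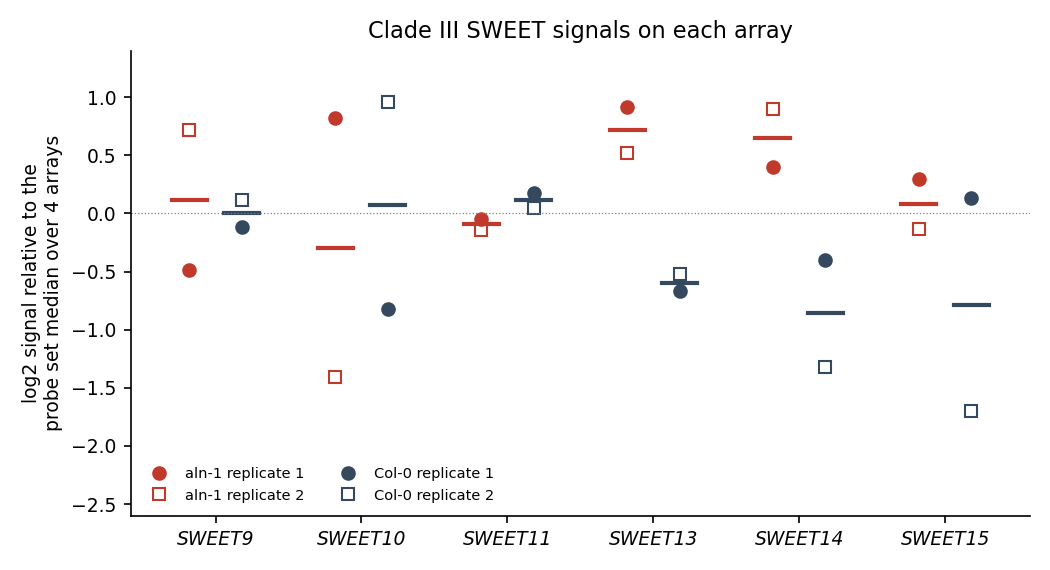
Log2 signal relative to the probe set median over 4 arrays (vertical axis) for the 6 measured clade III SWEET genes, with each array as a point and the genotype mean as a bar, aln-1 left of Col-0. SWEET13 and SWEET14 have both aln-1 arrays above 0 and both Col-0 arrays below 0, SWEET11 lies within 0.2 of 0 on all arrays, and SWEET10 has a high and a low array in each genotype.

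The leaf and phloem carriers were SWEET11 and SWEET13. SWEET11 had values of -0.047 and -0.14 on the aln-1 arrays, against 0.18 and 0.047 on the Col-0 arrays. Both aln-1 arrays were the lower, with a gap of 0.094 between the nearest arrays of the genotypes. The means were -0.096 ± 0.069 in aln-1 and 0.12 ± 0.097 in Col-0 (SD, n = 2 each). The difference of -0.21 on the log2 scale (SE 0.14) had a 95% interval of -0.64 to 0.22 and a limma adjusted p of 0.438. That interval runs from a ratio of 0.641 to a ratio of 1.16, aln-1 over Col-0, so a change of 2-fold in either direction lay outside it.

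SWEET13, which is known to take over part of the phloem loading when SWEET11 and SWEET12 are missing, had values of 0.92 and 0.52 in aln-1, against -0.67 and -0.52 in Col-0. The genotypes did not overlap, and the nearest arrays were 1.05 apart, more than the 0.40 between the aln-1 arrays or the 0.15 between the Col-0 arrays. Its mean was 0.72 ± 0.28 in aln-1 and -0.60 ± 0.10 in Col-0 (SD, n = 2 each). The difference of 1.32 (SE 0.21) had a 95% interval of 0.69 to 1.94 and a limma adjusted p of 0.104. SWEET13 was the 1 measured clade III gene at least 2-fold higher in all 4 pairs of an aln-1 and a Col-0 array, a rule that 4.67% of all probe sets met.

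SWEET14 is the close relative of SWEET13, and the pair is known from anthers and as carriers of the hormone gibberellin. It had values of 0.40 and 0.90 in aln-1, against -0.40 and -1.32 in Col-0. The genotypes were 0.80 apart at their nearest, less than the 0.92 between the Col-0 arrays. The mean was 0.65 ± 0.36 in aln-1 and -0.86 ± 0.65 in Col-0 (SD, n = 2 each), a difference of 1.51 (SE 0.42, 95% interval 0.23 to 2.78, limma adjusted p = 0.18). With each array left out in turn, the difference stayed between 1.12 and 1.51 for SWEET13 and between 1.05 and 1.97 for SWEET14.

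**Figure D2:**
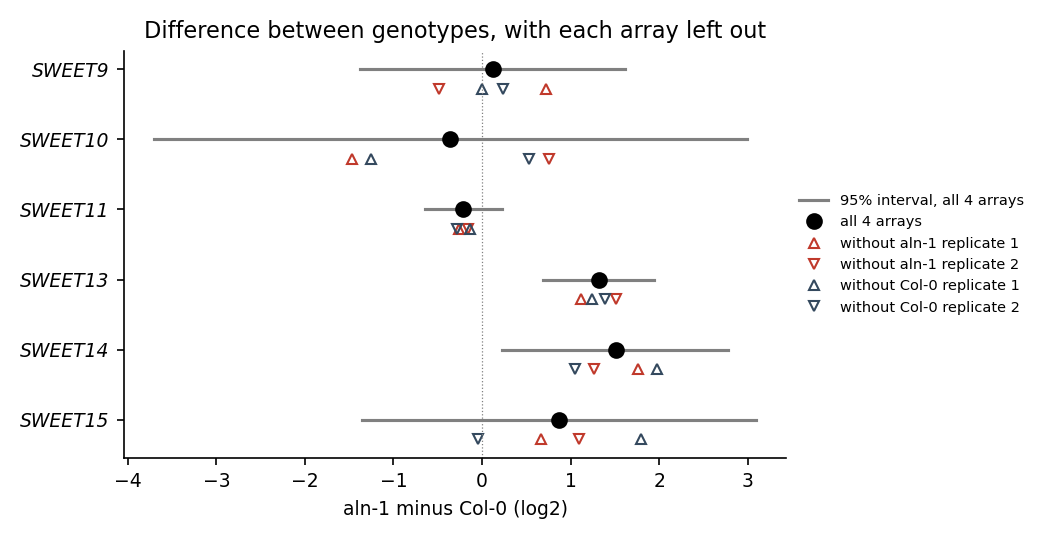
Difference between genotypes (aln-1 minus Col-0, log2, horizontal axis) for each measured clade III gene, with the estimate from all 4 arrays as a black point, its 95% interval as a line and the estimates with each array left out as triangles. The triangles of SWEET13 and SWEET14 all lie above 1, and those of SWEET9, SWEET10 and SWEET15 lie on both sides of 0.

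SWEET15, also known as SAG29, is induced in senescing leaves and by salt and osmotic stress. It had values of 0.30 and -0.13 in aln-1, against 0.13 and -1.70 in Col-0. Col-0 replicate 2 stood far below the other 3 arrays, and Col-0 replicate 1 lay between the aln-1 arrays. The difference of 0.87 (SE 0.74) had a 95% interval of -1.35 to 3.09 and a limma adjusted p of 0.521, and without Col-0 replicate 2 it was -0.044. The means were 0.086 ± 0.31 in aln-1 and -0.79 ± 1.29 in Col-0 (SD, n = 2 each).

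Other genes that respond to the same conditions are given for comparison. Their lists were chosen with earlier results of these data known, so the counts are a description only. Of 9 listed ABA and drought response genes 5 were measured: LEA4-5, COR15A, COR15B, COR47 and LTI30. All 5 were higher on both aln-1 arrays, where 25.2% of all probe sets were. Their differences were 1.44 to 2.99, with a median of 1.70 and limma adjusted p from 0.0698 to 0.129. The other listed genes were not measured, so these 5 do not stand for the whole list. WRKY53, a regulator of leaf senescence and the 1 measured of 5 senescence markers, was at -0.76 and -0.89 in aln-1, against 1.58 and 0.76 in Col-0 (difference -1.99, SE 0.35, limma adjusted p = 0.115).

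SWEET10, which is known to be activated in the vasculature and shoot apex at the floral transition, had values of 0.82 and -1.41 in aln-1, against -0.82 and 0.96 in Col-0. Each genotype had a high and a low array, 2.23 apart in aln-1 and 1.78 apart in Col-0. The means were -0.29 ± 1.58 in aln-1 and 0.067 ± 1.26 in Col-0 (SD, n = 2 each), and the difference of -0.36 (SE 1.11) had a 95% interval of -3.70 to 2.99 and a limma adjusted p of 0.866. These arrays therefore left room for a change of SWEET10 of several-fold in either direction.

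SWEET9, the carrier that secretes nectar sucrose in nectaries, had values of -0.49 and 0.72 in aln-1, against -0.12 and 0.12 in Col-0. The Col-0 arrays both lay between the aln-1 arrays. The means were 0.12 ± 0.86 in aln-1 and 0 ± 0.17 in Col-0 (SD, n = 2 each), with a difference of 0.12 (SE 0.50, 95% interval -1.38 to 1.61, limma adjusted p = 0.905). Its signal was in the dim class. Detection calls were not used here, so whether SWEET9 was expressed in these seedlings is not known from the values.

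The order of the differences was SWEET14, SWEET13, SWEET15, SWEET9, SWEET11 and SWEET10, from 1.51 down to -0.36. The intervals of SWEET15, SWEET9 and SWEET10 each overlapped those of all other measured members, so neighbours in this order could not be told apart. The intervals of SWEET13, from 0.69, and of SWEET14, from 0.23, lay above that of SWEET11, which ended at 0.22. The difference between these genes was not itself tested. The median of the 6 differences was 0.49, against -0.076 over all probe sets, and 4 of the 6 were above 0, as were 44% of all probe sets. The median was 0.39 without Col-0 replicate 2, 0.92 without aln-1 replicate 2 and 0.87 without the dim class. Both genotypes' arrays were apart in 3 of the 6: SWEET13 and SWEET14 were higher in aln-1, where 25.2% of all probe sets were, and SWEET11 was lower, where 34.9% were.

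Against probe sets of the same brightness class, the size of the SWEET14 difference exceeded 89.2% and that of SWEET13 86.2% of the 7927 in the middle class. SWEET15 exceeded 73.2% and SWEET10 39.2% of that class. SWEET11 exceeded 39.0% of the 10432 bright probe sets, and SWEET9 exceeded 8.94% of the 4387 dim ones. SWEET13 and SWEET14 thus lay in the upper part of their class, below its 90th percentile of 1.56.

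**Figure D3:**
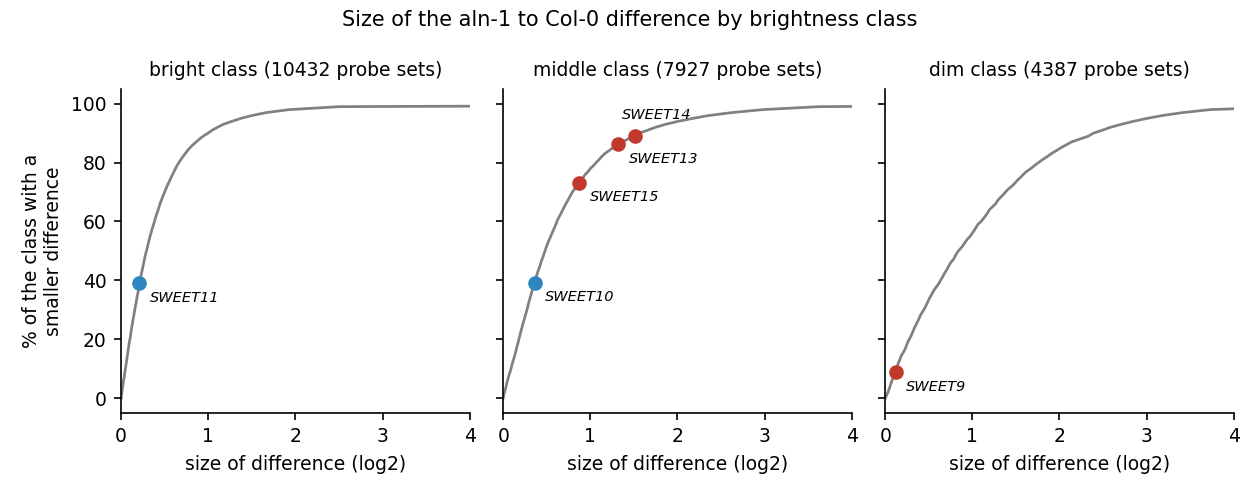
Share of a brightness class with a smaller difference between genotypes (vertical axis, percent) against the size of the difference (horizontal axis, log2, shown up to 4), for the bright, middle and dim classes. The curves are all probe sets of the class, and the points are the measured clade III genes, red where aln-1 was higher and blue where it was lower. SWEET13 and SWEET14 lie at 86.2% and 89.2% of the middle class.

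The patterns of the measured clade III genes over the 4 arrays were compared by the root mean square distance of their log2 values. SWEET13 and SWEET14 were 0.53 apart. SWEET13 ranked 684 of 13512 single-gene probe sets by likeness to SWEET14, and SWEET14 ranked 1808 by likeness to SWEET13. SWEET14 ranked 417 by likeness to SWEET15, with a distance of 0.61, and both had their lowest value on Col-0 replicate 2. SWEET10 and SWEET13, which are direct neighbours on chromosome 5 in the gene table, were 1.22 apart, and SWEET13 ranked 9457 by likeness to SWEET10.

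The single-gene probe sets nearest to SWEET13 were those of AT3G08490, AT1G27200 and the pseudogene AT3G20990, at distances of 0.067, 0.075 and 0.083. For SWEET14 they were AT3G21960, AT5G02000 and AT1G17910, at 0.047, 0.094 and 0.15. SWEET11 lay nearest to AT4G15020, AT2G35680 and AT2G47390, each at 0.018 to 0.020. SWEET15 lay nearest to AT2G04820, AT5G32630 and AT2G35080 (0.057 to 0.098), SWEET9 to AT1G47810, AT4G03340 and AT5G35800 (0.040 to 0.061), and SWEET10 to AT5G09780, AT2G13900 and AT1G75890 (0.13 to 0.20). Of these, AT3G20990, AT3G21960, AT1G17910, AT2G04820, AT5G32630, AT2G35080, AT1G47810, AT5G35800, AT5G09780 and AT1G75890 were in the dim class. Replicates in that class had a median SD of 0.94. With 4 arrays and 13513 single-gene probe sets, close matches of this kind are common, and the list is a description only.

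The 10 other SWEET genes, of clades I, II and IV, all had a named probe set. Of the 10, 0 passed the limma threshold, where 0.255% of all probe sets did. Their median difference was 0.83, with SWEET16, a vacuolar carrier, at 2.18 (SE 0.59) as the highest and SWEET1, a glucose carrier, at -0.94 (SE 0.32) as the lowest. SWEET4 was at 1.56 (SE 0.19, limma adjusted p = 0.0881), and SWEET17, a vacuolar fructose carrier, at 0.89 (SE 0.28). SWEET5, SWEET6, SWEET7, SWEET3, SWEET8 and SWEET2 differed by 0.50, 0.77, 1.26, 0.71, 1.32 and -0.088 (SE 0.16, 0.59, 0.62, 0.59, 1.65 and 0.27). Of the 10, 5 were higher on both aln-1 arrays, where 25.2% of all probe sets were: SWEET4, SWEET5, SWEET7, SWEET16 and SWEET17. SWEET1 was lower on both, where 34.9% were. SWEET7 was in the dim class, where 18.5% of probe sets were higher on both aln-1 arrays. Its genotypes were 0.15 apart at their nearest, less than the 1.21 between its aln-1 arrays. At an unadjusted limma p under 0.05, 4 of the 10 were higher, where 11.1% of all probe sets were. At that level 0 of the 10 were lower, where 12.3% were. Without Col-0 replicate 2 SWEET8 was at -0.78, SWEET3 at 0.075 and SWEET7 at 0.75. Without aln-1 replicate 1 SWEET7 was at 0.66, without Col-0 replicate 1 SWEET6 was at 0.23 and without aln-1 replicate 2 SWEET6 was at 0.26, and with each array left out in turn SWEET2 ranged from -0.36 to 0.18. Col-0 replicate 2 held the lowest value in 8 of the 16 measured SWEET genes, SWEET14 and SWEET15 among them, and in 20.5% of all probe sets. Without that array SWEET14 was at 1.05 and SWEET13 at 1.39.

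Few other genes of sucrose transport and metabolism could be set beside them. None of the 9 sucrose symporter genes (SUC family), 10 hexose symporter genes (STP family) or 5 plastid sugar carriers on the lists could be measured through a single-gene probe set. Of 7 vacuolar sugar carriers 3 were measured: TMT1, TMT2 and TMT3 differed by -0.25 (SE 0.13), 0.28 (SE 0.36) and 0.64 (SE 0.68). Without Col-0 replicate 2 TMT2 was at -0.13, and without Col-0 replicate 1 TMT3 was at -0.21. SPS4F, a sucrose phosphate synthase and the 1 measured of 6 sucrose synthesis genes, was at -0.44 and -0.77 in aln-1, against 0.44 and 0.82 in Col-0. Its difference was -1.24 (SE 0.23, limma adjusted p = 0.125). CWINV6, the 1 measured of 14 genes on the sucrose cleavage list, differed by -0.68 (SE 0.23, limma adjusted p = 0.220). It is grouped with the cell wall invertases by name, and whether it cleaves sucrose is not known from these data. Over these 5 genes 0 passed the limma threshold, where 0.255% of all probe sets did, and their median was -0.25. TMT1, SPS4F and CWINV6 were lower on both aln-1 arrays, where 34.9% of all probe sets were. None of the 5 was higher on both, where 25.2% were.

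**Figure D4:**
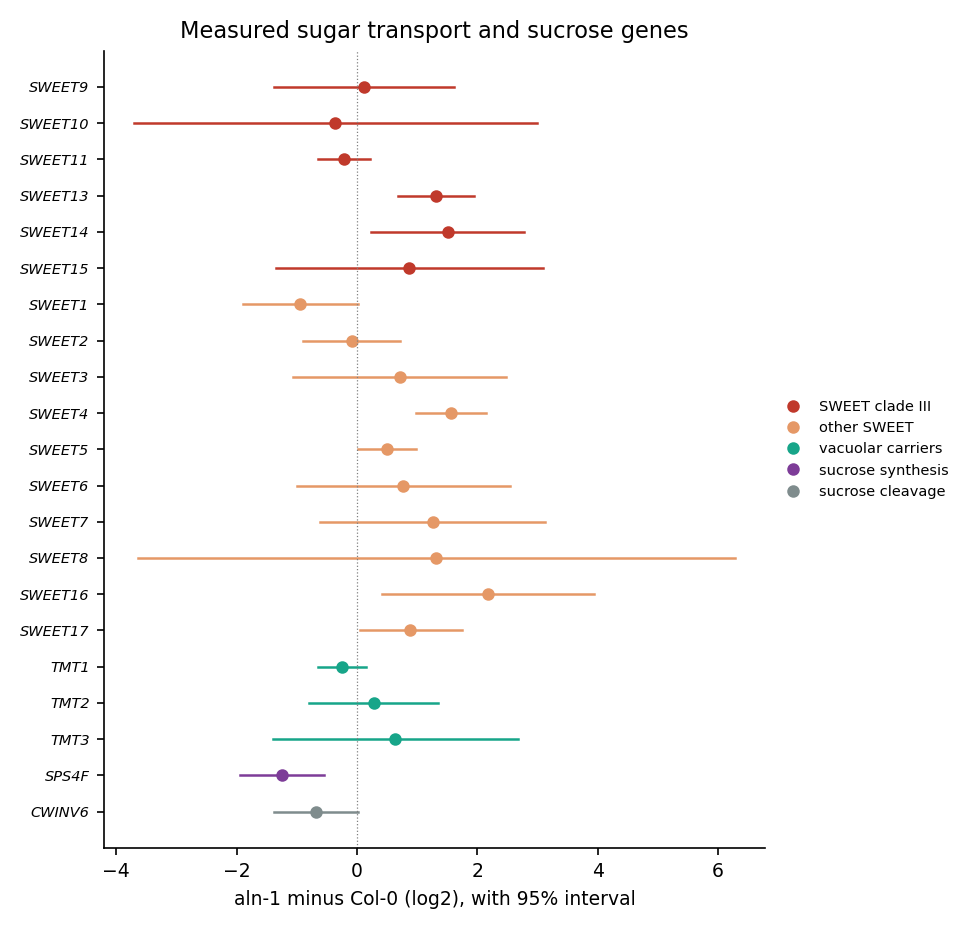
Difference between genotypes (aln-1 minus Col-0, log2, horizontal axis) with its 95% interval for the 16 measured SWEET genes and the 5 other measured genes on the sugar transport and sucrose metabolism lists. Intervals of SWEET4, SWEET5, SWEET13, SWEET14, SWEET16 and SWEET17 lie above 0. That of SPS4F lies below 0, and SWEET8 and SWEET10 have the widest intervals.

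SWEET13 and SWEET14 can also carry gibberellin, so the gibberellin genes on the lists were examined. Of 9 genes 3 were measured, all receptors. GID1A differed by 0.13 (SE 0.14), GID1B by 0.72 (SE 0.20) and GID1C by -0.57 (SE 0.21), with limma adjusted p of 0.609, 0.175 and 0.242. Of the 3, 0 passed the limma threshold, where 0.255% of all probe sets did. GID1A and GID1B were higher on both aln-1 arrays, where 25.2% of all probe sets were, and GID1C was lower on both, where 34.9% were. GID1B was at 0.23 and 0.55 in aln-1, against -0.44 and -0.23 in Col-0. GID1C was at -0.14 and -0.55 in aln-1, against 0.14 and 0.31 in Col-0. Without Col-0 replicate 1 GID1A was at 0.051, and without aln-1 replicate 2 GID1C was at -0.36.

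Root and leaf markers were also compared between the genotypes. None passed the limma threshold, where 0.255% of all probe sets did. All 3 root markers were higher on both aln-1 arrays, where 25.2% of all probe sets were: EXPA7 and EXPA18, expansins of root hairs, differed by 1.43 and 1.14 and PYK10, a root beta-glucosidase, by 0.20. Their mean log2 value was 0.30 and 0.57 in aln-1, against -0.67 and -0.31 in Col-0. Of the 4 leaf photosynthesis genes, SBPASE (-0.92) and PRK (-0.88) were lower on both aln-1 arrays, where 34.9% of all probe sets were. LHCB4.1 (-0.19) and PSAE-1 (-0.12) had overlapping arrays and were at -0.064 and 0.059 without Col-0 replicate 1. The means of the 4 genes were -0.14 and -0.46 in aln-1, against 0.29 and 0.17 in Col-0. None of the 9 phloem, 7 flower and nectary, 3 seed or 2 pollen markers had a named probe set, so the amount of these tissues could not be followed. The part of tissue makeup in the SWEET13 and SWEET14 differences was not tested.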

How the data were processed

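The members and gene lists were chosen with earlier results of these data known. Groups are the genotypes named in the array titles. MAS5 made the signals, per the submitters' processing notes, and the deposited log2 values are relative to each probe set's median: the middle pair of 4 values summed to 0 within 1.4e-06. How arrays were scaled and the base of the logarithm are not stated there. Base 2 was inferred, since with natural logarithms the bright class (45.9% of probe sets) would mean signals of at least 2981; every fold and signal limit rests on it.

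Values were fitted as deposited, on genotype, with limma 3.58.1 in R 4.3.3 (lmFit, eBayes without trend, two-sided, tested on simulated data), with no filter and no pseudocount. P-values were adjusted by Benjamini-Hochberg over all 22746 probe sets, and the threshold was 0.05. Intervals are limma's 95% intervals for the difference between the genotype means. Their variance combines a gene's own spread between 2 arrays per genotype with the spread over all probe sets. A two-sided exact permutation test of 2 against 2 arrays cannot go below p = 0.333, so none is printed. The number of arrays limits the precision.

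The brightness class is the finest binary rounding step among a row's values; it is approximate and reflects the dimmer arrays. It gave 10432 bright, 7927 middle and 4387 dim probe sets.

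Names came from the array annotation, updated through a RefSeq gene table (TAIR10.1), used only for names and neighbours. Of the probe sets, 13513 had 1 gene, 503 several, and 8730 were unnamed here. Of 129 list genes, 122 matched by locus and symbol; the 7 others were left out. Named genes are all measured members, ALN, the measured list genes and the 3 nearest probe sets per member, by a fixed rule. No sequence table was used. Same-numbered arrays did not deviate together (correlation over probe sets 0.0209).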

Additional observations from a re-analysis of the deposited data

How the results depend on the processing

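Of the measured clade III genes, 3 turned sign with an array left out and 0 passed the limma threshold under any alternative. Changes of prior, block, threshold or probe set filter leave the difference itself as it is, and the fits that call 0 probe sets could not have called a clade III gene, so these say nothing of stability. With each array left out in turn, SWEET9 ranged from -0.49 (without aln-1 replicate 2) to 0.72 and was at -0.0049 without Col-0 replicate 1. SWEET10 ranged from -1.47 to 0.76 (without aln-1 replicate 2) and was at 0.53 without Col-0 replicate 2. SWEET15 ranged from -0.044 (without Col-0 replicate 2) to 1.79. SWEET11 ranged from -0.28 to -0.14. The median of the measured members was 0.39 to 0.92 when an array was dropped. It was 0.87 when dim probe sets were dropped, SWEET9 with them. SWEET13 was nearest to the threshold without the dim class, with a limma adjusted p of 0.0533, over a range of 0.0533 to 0.365. SWEET14 had 0.107 to 0.414. The number of probe sets called by limma, 58 in the fit used, was 0 with the replicate block (4460 at an unadjusted p under 0.05), 0 with a robust prior (5084 likewise), 0 at a threshold of 0.01 and 0 without any 1 array (0 to 0; 2953 to 5326 at an unadjusted p under 0.05), 903 with priors within brightness classes, 1078 at a threshold of 0.1 and 783 without the dim class. The block and a left-out array leave fewer degrees of freedom, and a genotype reduced to 1 array was taken to vary as the other did. For the remaining changes the cause was not tested. With the replicate block the limma adjusted p was 0.213 for SWEET13. Centring arrays on their medians turned no difference and gave 1.37 for SWEET13 and 1.56 for SWEET14. SWEET9 and SWEET10 are limited by signal and scatter, and SWEET12 was not analysed here.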

Other observations

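Genes that lie directly beside the clade III members had their own values. EULS3, the gene before SWEET9 and a lectin gene, was at 0.65 and 0.76 in aln-1, against -0.82 and -0.65 in Col-0, a difference of 1.43 (SE 0.15, limma adjusted p = 0.0813), while SWEET9 itself differed by 0.12. AMY1, an alpha-amylase gene directly before SWEET14, was at -0.0045 and -0.29 in aln-1, against 1.52 and 0.0045 in Col-0, a difference of -0.91 (SE 0.61, limma adjusted p = 0.435). Without Col-0 replicate 1 AMY1 was at -0.15. AT4G25020, on the other side of SWEET14, differed by 0.068 (SE 0.27), and AT5G50780, beside SWEET10, by 0.016 (SE 0.13); without Col-0 replicate 2 they were at -0.24 and -0.0091. On either side of the unmeasured SWEET12, AT5G23650 differed by 1.33 (SE 1.45), with a dim signal and a value of -0.42 without aln-1 replicate 1, and LCB2, a subunit of serine palmitoyltransferase, by -0.25 (SE 0.15). These neighbours were looked at after the values of the members were known. Of the 6, 0 passed the limma threshold, where 0.255% of all probe sets did.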
